A study of Homo sapiens with 25 samples.

Results

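The TIP60 complex, the human counterpart of yeast NuA4, is described here through the mRNA of 10 of its subunits in A549 cells. The genes were KAT5, EP400, DMAP1, BRD8, EPC1, EPC2, ING3, MRGBP, MORF4L1 and MBTD1, chosen by name from a list of subunits and not by a threshold on their values. DMAP1 and BRD8 were put on the list with opposite moves in view. All 10 were found among the 28395 genes of the count table, and all 10 passed the filter on low counts that left 14658 genes for testing.

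A549 is an established human lung carcinoma line. The cells of every group, DMSO controls included, carried an auxin-inducible degron tag on TRRAP (mAID-TRRAP) and had been held in 2 mM thymidine for 20 h and then released for 4 h. The 4 groups of 3 RNA-seq libraries were cells given 5-Ph-IAA plus prexasertib (called both drugs), 5-Ph-IAA alone, prexasertib alone, and DMSO. 5-Ph-IAA, the ligand that sends mAID-tagged TRRAP to degradation, was used at 1 µM for 6 h, and prexasertib, which inhibits the checkpoint kinase CHK1, was used for 3 h at a dose on which the labels disagree. The labels give the genotype as WT although the growth protocol names mAID-TRRAP cells, and cells lacking the tag but given 5-Ph-IAA are not analysed here. Whether the tagged cells were 1 clone is not given in the sources used here.

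TIP60 brings together an acetyltransferase, a chromatin remodeller and the large protein TRRAP. Its catalytic subunit KAT5 acetylates histones H4 and H2A, and the EP400 subunit exchanges the histone variant H2A.Z into nucleosomes. Other subunits read histone marks or hold the modules together, and the complex is known for its roles in transcription activation by MYC and E2F factors and in the response to DNA breaks.

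Total counts per library ran from 10830048 to 17789482, and the least covered member, ING3, had 56 to 139 counts per library against 2405 to 4168 for MORF4L1. Levels are given as CPM, counts scaled to a common library total, on TMM-scaled library sizes and are compared only within a gene, because transcript lengths were not used here. The 4 libraries numbered 3 stood apart from the other 8: pairs of libraries that shared the number 3 had deviations from their group means that correlated at 0.531 to 0.633. Within their groups, the libraries numbered 3 held the highest level of KAT5, DMAP1, MRGBP and MORF4L1 in all 4 groups. Counts of called subunits without them are therefore given after the main ones, and those of the other gene lists where they differ. On library size alone, the summed level of 9 markers of epithelial and A549 cells was 11690 to 13090 CPM with both drugs, 11790 to 12590 CPM with 5-Ph-IAA, 11980 to 13540 CPM with prexasertib and 12590 to 14240 CPM with DMSO. Of the 9, EPCAM had group means of only 0.652 to 1.06 CPM, and KRT19 of 3.48 to 5.29 CPM. By the edgeR test used below, 0 of the 9 were higher with 5-Ph-IAA against DMSO and 3 were lower (KRT7, KRT8 and AKR1B10), beside 12.2% of all genes called lower. Of 11 markers of other cell types, 7 averaged under 1 CPM, and 1 of these, the fibroblast gene DCN, had no count in any library. The other 4 were the collagen gene COL1A1, at 22.6 to 37.5 CPM over the 12 libraries, and the neuronal genes SNAP25 at 43.9 to 55.8 CPM, SYT1 at 6.15 to 12.0 CPM and RBFOX3 at 2.75 to 8.31 CPM. Their part in the results was not tested. On library size alone, the whole list of 11 summed to 81.0 to 105 CPM with both drugs, 85.6 to 105 CPM with 5-Ph-IAA, 93.3 to 105 CPM with prexasertib and 87.7 to 99.1 CPM with DMSO.

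**Figure D1:**
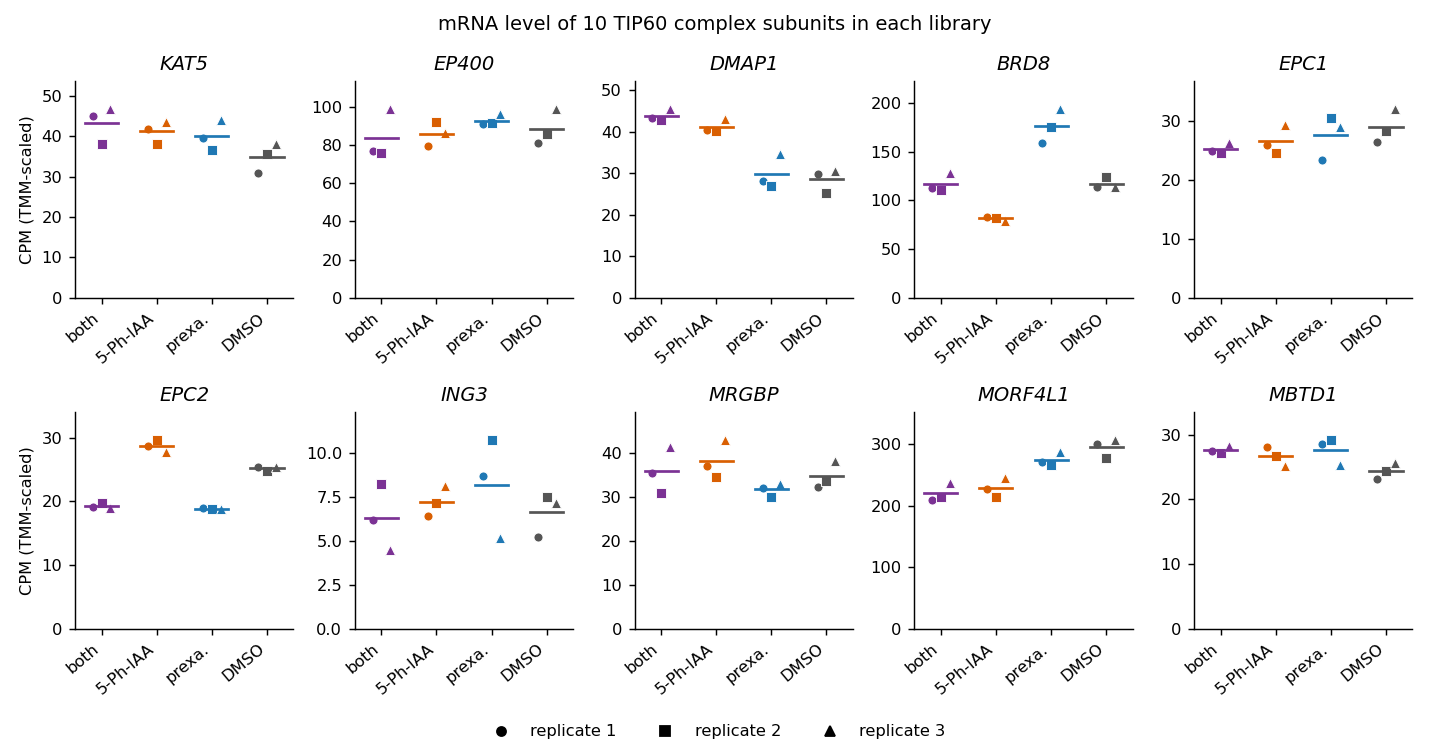
Level of each of the 10 subunit mRNAs in CPM (y axis of each panel, starting at 0) in the 12 libraries, grouped as both drugs, 5-Ph-IAA, prexasertib and DMSO from left to right; symbols are the 3 libraries of a group by replicate number and lines are group means. DMAP1 was at 40.3 to 45.4 CPM in the 6 libraries with 5-Ph-IAA and at 25.3 to 34.5 CPM in the 6 without it.

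With 5-Ph-IAA against DMSO, DMAP1 rose while BRD8 and MORF4L1 fell, and the other 7 subunits did not pass the test (edgeR quasi-likelihood test, Benjamini-Hochberg adjusted p under 0.05 over all genes tested). The count of 1 higher member in 10 stood beside a background of 9.65% of all genes called higher, and that of 2 lower members beside 12.2% called lower. When prexasertib was present in both groups, the same 3 genes moved in the same directions: 1 of 10 was higher with both drugs than with prexasertib, beside a background of 7.85%, and 2 of 10 were lower, beside 10.4%. With prexasertib against DMSO, BRD8 rose and EPC2 fell. These were 1 of 10 in each direction, where 2.36% of all genes were called higher and 2.37% lower. On top of 5-Ph-IAA, prexasertib again gave 1 higher member, BRD8, and 1 lower member, EPC2, beside backgrounds of 1.17% and 1.26%. Both drugs against DMSO left DMAP1 and KAT5 higher and MORF4L1 and EPC2 lower, 2 of 10 each way, where 11.8% of all genes were called higher and 14.2% lower. Each of these shares rests on 1 or 2 genes, and nothing particular to the subunits as a group is read from them. DMAP1 and BRD8 are among the genes counted and were chosen with their opposite moves known. Their calls and adjusted p-values therefore describe these genes and lend no support of their own.

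The libraries stood in several of these comparisons at once, so the comparisons with a shared group are not independent of each other. Libraries of a group are not stated to come from separate cultures, and the p-values measure the spread between them, which may be technical. The median log2 fold change of the 10 subunits was 0.13 with 5-Ph-IAA against DMSO and 0.06 with prexasertib against DMSO, where the medians over all genes tested were 0.01 and 0.00. It was -0.07 with both drugs against prexasertib, -0.05 with both drugs against 5-Ph-IAA and -0.04 with both drugs against DMSO, where all genes had medians of 0.01, 0.01 and 0.01. Without the libraries numbered 3, the called members were 2 higher and 2 lower with 5-Ph-IAA against DMSO, 2 and 1 with prexasertib against DMSO, 1 and 3 with both drugs against prexasertib, 1 and 1 with both drugs against 5-Ph-IAA, and 2 and 2 with both drugs against DMSO. That fit called more of all genes as well: 16.7% higher and 19.3% lower with 5-Ph-IAA against DMSO, 7.20% and 7.01% with prexasertib against DMSO, 13.1% and 17.4% with both drugs against prexasertib, 6.18% and 7.68% with both drugs against 5-Ph-IAA, and 17.4% and 20.1% with both drugs against DMSO. Every member called with all libraries kept its call and direction without those 4. Scaling by library size alone moved the median of all genes by 0.16 (log2) with 5-Ph-IAA against DMSO, by 0.14 with both drugs against prexasertib and by 0.10 with both drugs against DMSO. Under it 4 members were higher and 2 lower with 5-Ph-IAA against DMSO, 2 and 2 with both drugs against prexasertib, and 3 and 2 with both drugs against DMSO. Every member called under the main scaling kept its direction and call. The balance over all genes turned from mostly lower to mostly higher under library size alone, with 20.6% higher and 6.73% lower for 5-Ph-IAA against DMSO, 17.5% and 6.06% for both drugs against prexasertib, and 18.4% and 9.81% for both drugs against DMSO. The added calls were KAT5 at 0.40, EPC2 at 0.35 and MBTD1 at 0.29 with 5-Ph-IAA against DMSO, MRGBP at 0.32 with both drugs against prexasertib, and MBTD1 at 0.28 with both drugs against DMSO.

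**Figure D2:**
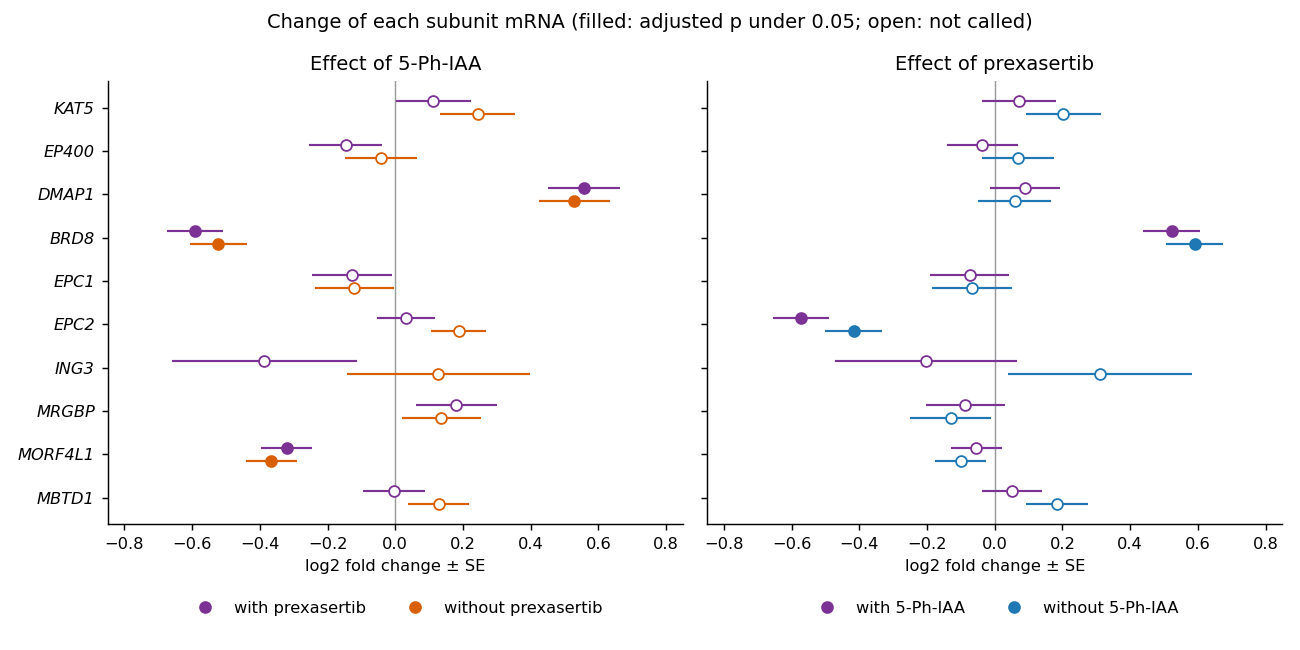
Log2 fold change of each subunit mRNA (x axis, bars of 1 SE) for 5-Ph-IAA, left, with prexasertib in both groups (purple) or in neither (orange), and for prexasertib, right, with 5-Ph-IAA in both groups (purple) or in neither (blue); filled points passed the edgeR test at an adjusted p under 0.05. Without the other drug, BRD8 lies at -0.52 for 5-Ph-IAA and 0.59 for prexasertib, and DMAP1 at 0.53 and 0.06.

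KAT5, the catalytic subunit, is a MYST-family acetyltransferase, annotated at chr11:65712018-65719604 on the plus strand (GRCh38). Its mRNA was at 45.2, 38.1 and 46.7 CPM in the libraries with both drugs, 42.0, 38.2 and 43.7 CPM with 5-Ph-IAA, 39.7, 36.6 and 44.1 CPM with prexasertib, and 31.0, 35.6 and 38.1 CPM with DMSO. The libraries with both drugs lay above those with DMSO, but the lowest of them, at 38.07 CPM, barely cleared the highest DMSO library, at 38.06 CPM. The log2 difference was 0.32 ± 0.11 (SE, edgeR adjusted p = 0.0494), and the call was kept under 11 of 21 alternative settings, with an adjusted p of 0.191 without DMSO replicate 1. Against DMSO, 5-Ph-IAA alone gave 0.24 ± 0.11 (edgeR adjusted p = 0.133). With the replicate number as a block, 5-Ph-IAA against DMSO was called for KAT5, at 0.25 (edgeR adjusted p = 0.0147), under a fit that called 19.0% of all genes higher.

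The span of KAT5 overlaps that of RNASEH2C, on the opposite strand, by 1932 bases. RNASEH2C, a subunit of the RNase H2 enzyme, averaged 44.7 ± 4.38 CPM with both drugs, 41.4 ± 5.18 CPM with 5-Ph-IAA, 43.0 ± 4.19 CPM with prexasertib and 46.5 ± 4.14 CPM with DMSO (SD, n = 3 each) and was called in none of the 5 pairwise comparisons. The strand setting of the counting is not given in the sources used here, so reads in that overlap cannot be assigned for certain.

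EPC1 and EPC2, paralogs named after the Drosophila gene Enhancer of Polycomb, anchor the acetyltransferase module to the rest of the complex. EPC2 followed prexasertib. It was at 19.1, 19.8 and 19.0 CPM with both drugs, 28.7, 29.6 and 27.7 CPM with 5-Ph-IAA, 19.0, 18.8 and 18.8 CPM with prexasertib, and 25.3, 24.8 and 25.4 CPM with DMSO. All 6 libraries given prexasertib lay below all 6 that were not. EPC2 fell by 0.42 ± 0.08 on the log2 scale with prexasertib against DMSO (SE, edgeR adjusted p = 0.0119) and by 0.57 ± 0.08 with both drugs against 5-Ph-IAA (edgeR adjusted p = 0.00191). The comparison with DMSO lost its call without prexasertib replicate 1 (edgeR adjusted p = 0.0519) and in a fit to those groups alone (edgeR adjusted p = 0.0762), while its size stayed between -0.45 and -0.40. With 5-Ph-IAA against DMSO, EPC2 gave 0.19 ± 0.08 (edgeR adjusted p = 0.12).

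EPC1 passed in none of the comparisons, with 24.7 to 26.3 CPM with both drugs, 24.6 to 29.4 CPM with 5-Ph-IAA, 23.4 to 30.6 CPM with prexasertib and 26.5 to 32.1 CPM with DMSO. The ranges of all 4 groups overlapped apart from those of both drugs and DMSO. The log2 ratio of EPC2 to EPC1 CPM within a library averaged -0.39 ± 0.08 with both drugs, 0.11 ± 0.18 with 5-Ph-IAA, -0.54 ± 0.21 with prexasertib and -0.20 ± 0.14 with DMSO (SD, n = 3 each). ING3, a reader of methylated histone H3 in the same module, ranged from 4.45 to 8.25 CPM with both drugs, 6.39 to 8.12 CPM with 5-Ph-IAA, 5.13 to 10.7 CPM with prexasertib and 5.20 to 7.48 CPM with DMSO. Its groups overlapped in every comparison, and the log2 fold change with prexasertib, 0.31 ± 0.27 (SE, edgeR adjusted p = 0.651), had the widest error of the 10 genes. Without the libraries numbered 3 it was 0.63 and passed (edgeR adjusted p = 0.0395).

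EP400, the ATPase of the complex, was at 77.0, 75.7 and 98.8 CPM with both drugs, 79.6, 92.1 and 86.1 CPM with 5-Ph-IAA, 91.0, 91.4 and 96.1 CPM with prexasertib, and 80.9, 86.0 and 98.7 CPM with DMSO. Its groups overlapped in all 5 pairwise comparisons, and none passed. Without the libraries numbered 3, EP400 was lower with both drugs than with prexasertib by a log2 value of -0.26 (edgeR adjusted p = 0.00882), against -0.15 and an adjusted p of 0.382 with all libraries. A gene named as its pseudogene, EP400P1, was counted at 2.32 to 5.01 CPM, and how reads were split between them was not tested.

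DMAP1, a subunit named for its association with the DNA methyltransferase DNMT1 and shared with the SRCAP remodelling complex, followed 5-Ph-IAA. Its level was 43.3, 42.8 and 45.4 CPM with both drugs, 40.4, 40.3 and 43.0 CPM with 5-Ph-IAA, 28.0, 26.8 and 34.5 CPM with prexasertib, and 29.8, 25.3 and 30.6 CPM with DMSO. The 6 libraries given 5-Ph-IAA lay above the 6 that were not, whether or not prexasertib was present. DMAP1 rose 1.44-fold with 5-Ph-IAA against DMSO (log2 0.53 ± 0.11 SE, edgeR adjusted p = 0.00315) and was 1.47-fold higher with both drugs than with prexasertib (log2 0.56 ± 0.11 SE, edgeR adjusted p = 0.00259). Both drugs against DMSO gave a 1.53-fold rise (edgeR adjusted p = 0.000925). Prexasertib gave 0.06 ± 0.11 against DMSO (SE, edgeR adjusted p = 0.865) and 0.09 ± 0.10 on top of 5-Ph-IAA (SE, edgeR adjusted p = 0.786). The 3 calls were kept under all 21 alternative settings, and the log2 value with 5-Ph-IAA against DMSO stayed between 0.45 and 0.69.

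The promoter of DMAP1 is shown because it belongs to the member that rose with 5-Ph-IAA and holds a searched motif. The sequence is the RefSeq one (GRCh38.p14) of the 250 bases before the annotated start, chr1:44213221-44213470 on the plus strand, with the motif CCAAT in capitals.
DMAP1: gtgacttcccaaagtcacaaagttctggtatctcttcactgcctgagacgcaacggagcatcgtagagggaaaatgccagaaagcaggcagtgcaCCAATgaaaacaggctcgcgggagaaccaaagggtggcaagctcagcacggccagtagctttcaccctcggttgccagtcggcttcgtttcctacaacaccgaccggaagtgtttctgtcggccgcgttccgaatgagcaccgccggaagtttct

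Promoter windows of 300 bases (250 before and 50 after the start) were found for 9 of the 10 members, with a pair of windows for EPC1. Both strands were searched for the CHR element (TTTGAA), the CCAAT box, the E-box (CACGTG) and an E2F motif (GCGGGAA), none of which contains another. Among 35116 promoters in the same table, 15.2% held TTTGAA, 34.6% CCAAT, 7.26% CACGTG and 6.55% GCGGGAA. Of the members, 1 held TTTGAA (MRGBP), 3 held CCAAT (DMAP1, EPC1 and MBTD1), 1 held CACGTG (KAT5) and 3 held GCGGGAA (EPC1, EPC2 and MRGBP). For EPC1, CCAAT was in the window of the start at 32378769 and GCGGGAA in that of the start at 32347158. The window of KAT5 uses a start at 65712252, inside the annotated span given above. None of the 4 motifs was in the window of BRD8. Only these exact letters were searched, and variants of them were left out. A match is a run of letters and not a measured binding site.

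BRD8, a bromodomain protein of the complex, moved with each drug given alone, and in opposite directions. Its mRNA was at 112, 110 and 128 CPM with both drugs, 83.3, 82.3 and 78.8 CPM with 5-Ph-IAA, 159, 176 and 194 CPM with prexasertib, and 114, 124 and 114 CPM with DMSO. The libraries with prexasertib alone were the highest of the 12 and those with 5-Ph-IAA alone the lowest, while the ranges with both drugs and with DMSO overlapped. BRD8 rose 1.51-fold with prexasertib against DMSO (log2 0.59 ± 0.08 SE, edgeR adjusted p = 0.00129) and fell to 0.696 of the DMSO level with 5-Ph-IAA (log2 -0.52 ± 0.08 SE, edgeR adjusted p = 0.000697). It was at 0.664 of the prexasertib level with both drugs (log2 -0.59 ± 0.08 SE, edgeR adjusted p = 0.000329) and 1.44-fold above the 5-Ph-IAA level (log2 0.52 ± 0.08 SE, edgeR adjusted p = 0.00403). With both drugs BRD8 averaged 117 ± 9.83 CPM against 117 ± 5.88 CPM with DMSO (SD, n = 3 each), a log2 difference of 0.00 ± 0.08 (SE, edgeR adjusted p = 0.999). The 4 calls were kept under all 21 alternative settings. In bulk RNA, fewer cells in a cell cycle phase and less RNA per cell cannot be told apart.

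Between the start of BRD8 (chr5:138139770-138178630, minus strand) and that of KIF20A (chr5:138179112-138187723, plus strand) lie 481 bases, and the pair are transcribed away from each other without overlapping. KIF20A encodes a mitotic kinesin. It was at 201, 197 and 203 CPM with both drugs, 67.5, 65.0 and 68.6 CPM with 5-Ph-IAA, 477, 474 and 507 CPM with prexasertib, and 214, 211 and 221 CPM with DMSO. The order of the 4 groups by mean was the same as for BRD8 in its highest and lowest group, and the distances were larger. KIF20A rose by 1.17 ± 0.06 on the log2 scale with prexasertib against DMSO (SE, edgeR adjusted p = 2.92e-07) and fell by 1.68 ± 0.06 with 5-Ph-IAA against DMSO (SE, edgeR adjusted p = 3.73e-09). It was lower with both drugs than with prexasertib, at -1.28 (edgeR adjusted p = 9.83e-08), and higher than with 5-Ph-IAA, at 1.58 (edgeR adjusted p = 8.47e-09). Its libraries with both drugs lay below those with DMSO, but the log2 difference of -0.10 did not pass (edgeR adjusted p = 0.212). Its interaction of the drugs, 0.40 ± 0.08, was called with the replicate block (edgeR adjusted p = 0.00155) but not without it (edgeR adjusted p = 0.786). The ratio of KIF20A to BRD8 within a library was 1.58 to 1.79 with both drugs, 0.789 to 0.871 with 5-Ph-IAA, 2.62 to 2.99 with prexasertib and 1.70 to 1.94 with DMSO. The level of KIF20A thus spread more widely over the groups than that of BRD8, and whether the genes share control was not tested.

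Parts of the stretch between the starts are shown because it lies before both genes, and because a searched motif is found in the part next to KIF20A and not in the part next to BRD8. The 111 bases between the 2 parts are not shown. Both are RefSeq sequences (GRCh38.p14). The first is the 250 bases before the start of BRD8, chr5:138178631-138178880, read on the minus strand, with no motif to capitalise. The second is the 120 bases before the start of KIF20A, chr5:138178992-138179111, read on the plus strand, with capitals marking CCAAT on the opposite strand, which reads as its reverse complement.
BRD8: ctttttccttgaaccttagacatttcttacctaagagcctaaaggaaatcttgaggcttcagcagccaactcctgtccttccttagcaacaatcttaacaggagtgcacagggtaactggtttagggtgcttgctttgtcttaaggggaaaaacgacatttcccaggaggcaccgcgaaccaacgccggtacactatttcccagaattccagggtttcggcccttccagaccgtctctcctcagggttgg
KIF20A: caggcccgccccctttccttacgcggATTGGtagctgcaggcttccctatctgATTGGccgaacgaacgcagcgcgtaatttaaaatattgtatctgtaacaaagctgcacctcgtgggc

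**Figure D3:**
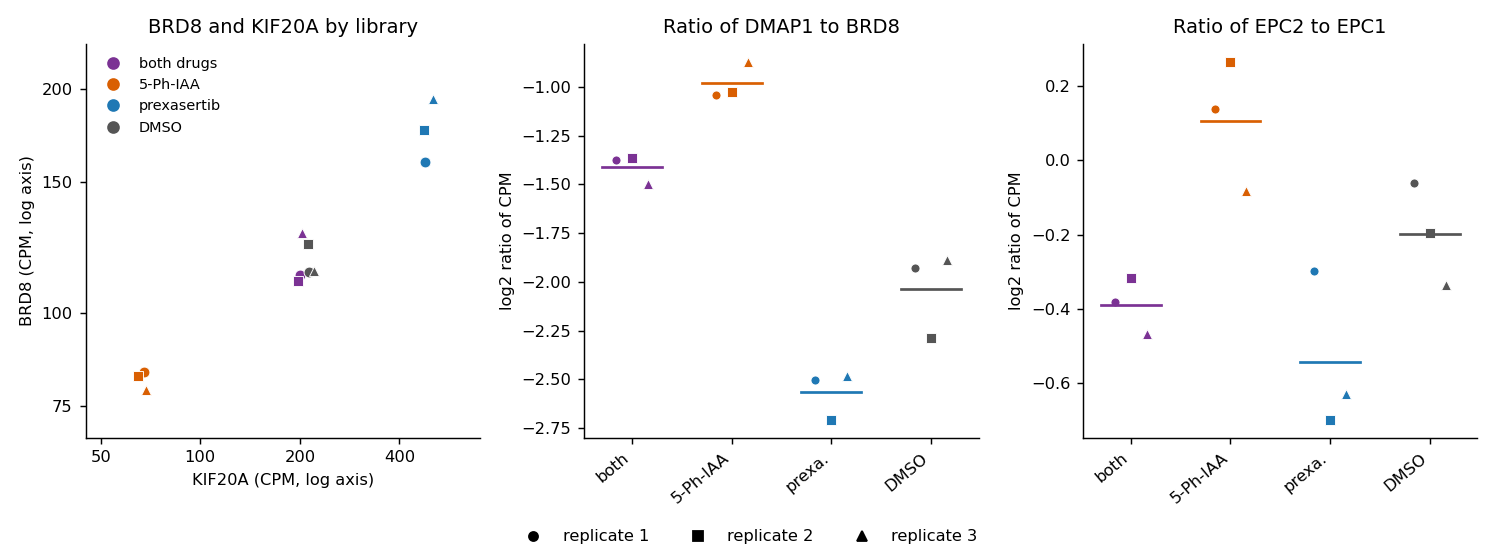
Left, BRD8 (y axis) against KIF20A (x axis) in CPM on log axes, 1 symbol per library, coloured by group; middle and right, log2 ratio of DMAP1 to BRD8 and of EPC2 to EPC1 CPM within each library, with lines at the group means, from both drugs to DMSO. The DMAP1 to BRD8 ratio was between 0.485 and 0.546 on the linear scale with 5-Ph-IAA and between 0.152 and 0.178 with prexasertib.

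The moves of DMAP1 and BRD8, which were opposite with 5-Ph-IAA, changed their proportion within a library. Of the pair, only BRD8 was called with prexasertib against DMSO, and only DMAP1 with both drugs against DMSO. The log2 ratio of DMAP1 to BRD8 was -1.37, -1.36 and -1.50 with both drugs, -1.04, -1.03 and -0.87 with 5-Ph-IAA, -2.50, -2.71 and -2.48 with prexasertib, and -1.93, -2.29 and -1.89 with DMSO. The groups did not overlap in this ratio. It is a ratio of CPM, not of molecules, and since the choice of these genes used their opposite moves, it carries no test.

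The remaining subunits belong to the module that reads histone methylation. MORF4L1 (also MRG15), whose chromodomain reads methylated H3 lysine 36 and which also sits in SIN3 complexes, was at 210, 213 and 238 CPM with both drugs, 227, 214 and 246 CPM with 5-Ph-IAA, 271, 266 and 288 CPM with prexasertib, and 301, 277 and 307 CPM with DMSO. The 6 libraries with 5-Ph-IAA lay below the 6 without it. MORF4L1 fell to 0.776 of its DMSO level with 5-Ph-IAA (log2 -0.37 ± 0.08 SE, edgeR adjusted p = 0.00384) and was at 0.801 of its prexasertib level with both drugs (log2 -0.32 ± 0.08 SE, edgeR adjusted p = 0.00969). Both drugs against DMSO gave -0.42 ± 0.08 (SE, edgeR adjusted p = 0.00128). Prexasertib alone gave -0.10 ± 0.08 (SE, edgeR adjusted p = 0.57). With scaling by library size alone the 5-Ph-IAA value was -0.21 (edgeR adjusted p = 0.0224) and that of both drugs against prexasertib -0.18 (edgeR adjusted p = 0.048). Pseudogene copies of MORF4L1 are not analysed here, and how reads were split between them was not tested.

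MRGBP, a protein that binds MORF4L1, ranged from 31.0 to 41.4 CPM with both drugs, 34.6 to 43.0 CPM with 5-Ph-IAA, 30.1 to 33.1 CPM with prexasertib and 32.4 to 38.3 CPM with DMSO. It passed in none of the comparisons, the lowest edgeR adjusted p being 0.331 with both drugs against prexasertib, where the log2 value was 0.18. The antisense gene OGFR-AS1, which overlaps MRGBP by 1103 bases, had 0 to 7 counts per library. MBTD1, a reader of methylated H4 lysine 20, was at 27.2 to 28.2 CPM with both drugs, 25.2 to 28.2 CPM with 5-Ph-IAA, 25.4 to 29.2 CPM with prexasertib and 23.2 to 25.6 CPM with DMSO. The libraries with both drugs lay above those with DMSO, but the log2 difference of 0.18 did not pass (edgeR adjusted p = 0.169). UTP18, a ribosome biogenesis factor read from the opposite strand, overlaps the span of MBTD1 (chr17:51177425-51260958, minus strand) by 413 bases. The promoter window of MBTD1 searched for motifs uses another start, at 51260049, with 496 bases between it and the start of UTP18. UTP18 averaged 33.4 ± 1.55 CPM with both drugs, 37.1 ± 5.36 CPM with 5-Ph-IAA, 53.8 ± 10.1 CPM with prexasertib and 66.6 ± 4.87 CPM with DMSO (SD, n = 3 each). UTP18 fell by 0.85 with 5-Ph-IAA against DMSO on the log2 scale (edgeR adjusted p = 0.000535), where MBTD1 gave 0.13 (edgeR adjusted p = 0.343).

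The interaction of the drugs, which asks whether 5-Ph-IAA acted differently with and without prexasertib, was called for 0 of 10 subunits, beside 0% of all genes tested. At an unadjusted p under 0.05 it counted 0 of the 10 subunits and 519 of all genes, and DESeq2 called 5 of all genes. The replicate block called 96 of all genes and the fit without the libraries numbered 3 called 187, with 0 subunits in each. Its log2 value was -0.07 ± 0.12 for BRD8, 0.03 ± 0.15 for DMAP1, -0.16 ± 0.12 for EPC2 and -0.51 ± 0.38 for ING3 (SE). A count of 0 here does not show that 5-Ph-IAA acted alike in the presence and absence of prexasertib.

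**Figure D4:**
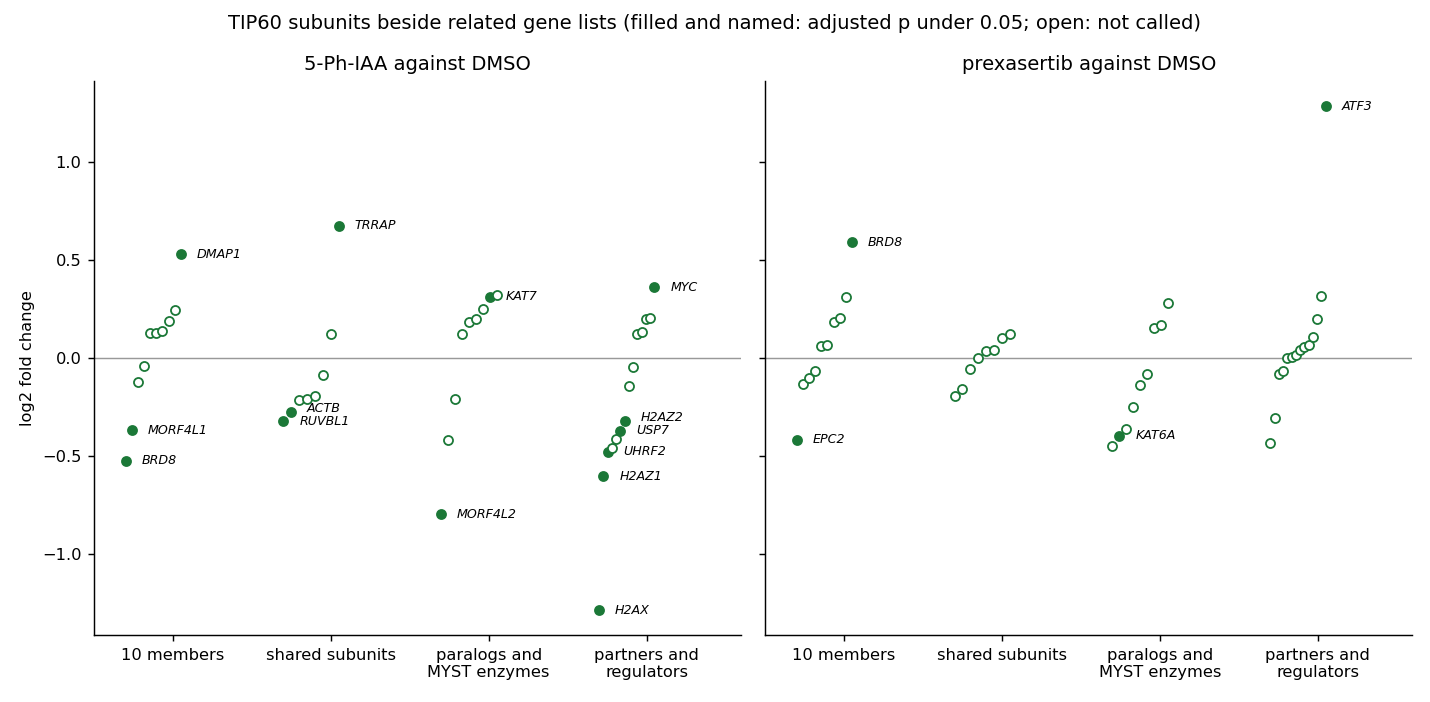
Log2 fold change of single genes (points) in the subunit group and in the lists of shared subunits, paralogs with MYST enzymes, and partners, with 5-Ph-IAA against DMSO and with prexasertib against DMSO; filled points passed the edgeR test. In the 5-Ph-IAA comparison MORF4L2 lies at -0.79 and TRRAP at 0.67.

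Among 8 subunits that TIP60 shares with other complexes (TRRAP, RUVBL1, RUVBL2, ACTL6A, ACTB, MEAF6, YEATS4 and VPS72), 1 was higher and 2 were lower with 5-Ph-IAA against DMSO. Of all genes, 9.65% were called higher and 12.2% lower there. For the other counts of this list and the next 2, the shares of all genes given above apply. No trait of a list is read from these counts. TRRAP mRNA, whose protein is the target of 5-Ph-IAA, rose to 133 ± 15.3 CPM with 5-Ph-IAA, against 83.2 ± 9.90 CPM with DMSO (SD, n = 3 each; log2 0.67, edgeR adjusted p = 0.00418). The tag acts on the protein, so its mRNA checks nothing about the degradation. RUVBL1, an ATPase, fell by 0.32 (edgeR adjusted p = 0.0326) and ACTB by 0.27 (edgeR adjusted p = 0.03), and both lost the call under scaling by library size alone. With the replicate block 1 was higher and 4 lower. That block called 2780 of all genes higher and 3465 lower here, and 2528 and 2913 with both drugs against prexasertib. It called 1227 and 1432 with prexasertib against DMSO and 1144 and 1128 with both drugs against 5-Ph-IAA. With both drugs against DMSO it called 3111 and 3441. Both drugs against prexasertib gave 1 higher, TRRAP at 0.67 (edgeR adjusted p = 0.00541), and 1 lower, ACTB at -0.32 (edgeR adjusted p = 0.0157), with 1 and 3 under the block and ACTB not called under scaling by library size alone. The list had 0 calls with prexasertib against DMSO and 0 with both drugs against 5-Ph-IAA, where the block called 1 higher. Both drugs against DMSO gave TRRAP alone, at 0.51 (edgeR adjusted p = 0.0161), a call lost under the block (edgeR adjusted p = 0.0603), which called 3 others lower. Without the libraries numbered 3, the list had 1 higher and 3 lower with 5-Ph-IAA against DMSO and likewise 1 and 3 with both drugs against prexasertib. It had 1 and 1 with both drugs against 5-Ph-IAA and 1 and 2 with both drugs against DMSO.

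Of 9 paralogs and further MYST acetyltransferases, MORF4L2, the paralog of MORF4L1, fell furthest with 5-Ph-IAA, at 243 ± 26.9 CPM against 421 ± 26.5 CPM with DMSO (SD, n = 3 each; log2 -0.79, edgeR adjusted p = 3.52e-05). It was also lower with both drugs than with prexasertib, at 284 ± 19.8 CPM against 511 ± 10.9 CPM (SD, n = 3 each; log2 -0.85, edgeR adjusted p = 2.38e-05). KAT7 was the 1 gene of this list that rose with 5-Ph-IAA against DMSO, by 0.31 (edgeR adjusted p = 0.00561). ING4 and KAT8 were higher with both drugs than with prexasertib, at 0.59 and 0.44 (edgeR adjusted p = 0.0162 and 0.0242). KAT6A fell by 0.40 with prexasertib against DMSO (edgeR adjusted p = 0.0205), the 1 call of the list there, where the replicate block gave 1 higher and 3 lower. With both drugs against 5-Ph-IAA, KAT6A, KAT6B and KAT7 were lower, at -0.41, -0.58 and -0.40, and under the block 3 others were higher. With both drugs against DMSO, 2 were higher and 3 lower, of which KAT6A and KAT6B were not called under scaling by library size alone. The list without the libraries numbered 3 had 1 higher and 3 lower with prexasertib against DMSO, 2 and 1 with 5-Ph-IAA against DMSO and 1 and 3 with both drugs against 5-Ph-IAA.

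Among 14 partners, substrates and regulators of TIP60, 1 was higher and 5 were lower with 5-Ph-IAA against DMSO. MYC rose by 0.36 (edgeR adjusted p = 0.0202), while H2AX, a histone variant marked at DNA breaks, fell by 1.28 and H2AZ1, which encodes the variant that EP400 exchanges, by 0.60. The other calls were H2AZ2, UHRF2 and USP7, at -0.32, -0.48 and -0.37, of which UHRF2 and H2AZ2 were not called under scaling by library size alone. With both drugs against prexasertib 0 were higher and 2 lower, namely USP7 and H2AX, while the replicate block called 8 lower and the fit without the libraries numbered 3 called 6 lower. Of all genes, the block called 2913 lower there, and the fit without those libraries called 17.4% lower. ATF3, a stress-induced factor, was the 1 gene that rose with prexasertib against DMSO, by 1.28 (edgeR adjusted p = 0.00332), where the block called 3 higher and 2 lower. With both drugs against 5-Ph-IAA H2AX was higher by 0.43 and MYC lower at -0.60, and the block called 6 higher and 1 lower. Both drugs against DMSO gave 2 higher, SIRT1 at 0.45 and ATF3 at 0.90, and 5 lower, namely H2AX at -0.85, E2F1 at -0.73, UHRF2 at -0.55, USP7 at -0.48 and SRCAP, the ATPase of a related remodelling complex, at -0.36 (edgeR adjusted p = 0.0151). SRCAP was not called under scaling by library size alone. The partner list without the libraries numbered 3 had 2 higher and 7 lower with 5-Ph-IAA against DMSO, 2 and 2 with prexasertib against DMSO, 6 and 2 with both drugs against 5-Ph-IAA, and 2 and 6 with both drugs against DMSO. The interaction was called in 0 genes of the 3 lists, and under the block in MYC and H2AX, at -0.53 and 0.38 (edgeR adjusted p = 0.0184 and 0.00985). In the fit without the libraries numbered 3 it was called in TRRAP at -0.45, MYC at -0.64, ATF3 at -0.61 and H2AX at 0.41 (edgeR adjusted p = 0.0374, 0.00123, 0.00888 and 0.0243).

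The genes whose profile over the 12 libraries was nearest to those of DMAP1 and BRD8 were sought among 10330 genes by the root mean square difference of log2 CPM, each gene centred on its own mean. Nearest to DMAP1, whose profile spanned 0.84 log2 units, were INTS14 (a subunit of the Integrator complex), NSMCE3 (of the SMC5/6 complex), CPT2 (a mitochondrial carnitine palmitoyltransferase), GNAL (a G protein alpha subunit) and C2orf68, at 0.081 to 0.0938 log2 units. Their log2 fold changes with 5-Ph-IAA against DMSO were 0.54, 0.46, 0.53, 0.41 and 0.35. Nearest to BRD8, whose profile spanned 1.30 log2 units, were ZNFX1, TUBB4B (a beta-tubulin), CKAP5 (a microtubule polymerase of the spindle), ADGRE5 (an adhesion receptor) and JPT1, at 0.103 to 0.114 log2 units. Their values with 5-Ph-IAA against DMSO were -0.45, -0.64, -0.40, -0.66 and -0.61, and with prexasertib against DMSO 0.63, 0.50, 0.72, 0.47 and 0.54. The points share libraries and depth, and the likeness is a description with no test.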

How the data were processed

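RNA was measured in 12 libraries from 4 groups of 3. The deposited table holds raw read counts per gene, whole numbers left unnormalized by the authors. Per the submitters' processing notes, the tools included limma 3.58.1 and featureCounts 2.0.8, on hg38. For these counts, the aligner, annotation and strand setting were not given in the sources used here. Gene symbols and positions came from the RefSeq gene table (GRCh38.p14), which matched 27745 of 28395 IDs. The 13 CUT&RUN samples are not analysed here.

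The fit used edgeR 4.0.16 (R 4.3.3). The filter, filterByExpr with a minimum count of 10 and a minimum total of 15, kept 14658 genes holding 99.92% of the counts. TMM scaling factors were 1.02 to 1.1 in libraries with 5-Ph-IAA and 0.925 to 0.978 in the others. All 12 libraries entered 1 robust quasi-likelihood fit by group, and F-test p-values were adjusted by Benjamini-Hochberg over all genes tested. SE values were obtained by dividing the absolute log2 fold change by the root of its F statistic. The biological coefficient of variation was 12.8%. CPM is given as mean ± SD over 3 libraries, and log2 CPM used a prior count of 2. No pair of libraries was a duplicate, since counts differed in at least 98.2% of tested genes. Library totals set the counting error, and PCR reads lacking molecular identifiers are not independent molecules.

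The alternatives were DESeq2 size factors, library size alone, no filter, a stricter filter (CPM over 1 in 3 libraries), DESeq2 1.42.0, limma-voom (limma 3.58.1), the replicate number as a block, omission of the 4 libraries numbered 3, omission of each library, and a fit to the groups compared only. Same-numbered libraries were checked for pairing: in all 18 pairs their deviations from the group means correlated, at 0.22 to 0.633, which passed a rule that every such pair exceed 0.1. The labels do not say that a number marks a shared culture or day, so the main fit had no block and the block is an alternative only. Libraries numbered 1 and 2 correlated with each other at 0.196 to 0.366, and pairs that shared the number 1 or 2 at 0.22 to 0.402. The rule therefore does not tell these shared numbers from unlike ones. Pairs of a library numbered 3 with one numbered 1 or 2 correlated at -0.503 to -0.326. Only 5 of 12 libraries correlated best with their own number in every other group. All 10 members were named. Genes of the other lists were named when called, and neighbours when they overlapped a member or started within 1000 bases of it on the opposite strand. SNORA49, which overlaps EP400 by 137 bases, and EPC1-AS1, which overlaps EPC1 by 27125 bases, had 0 counts in every library. LOC124901734, a noncoding RNA gene that overlaps ING3 by 6090 bases, is not analysed here. The 5 genes most like DMAP1 and BRD8 were taken among genes averaging log2 CPM 3 or more. The members and lists were chosen with earlier results of these data known. Apart from the genes of the 3 lists, 1 gene first placed among the partners is not reported here.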

Additional observations from a re-analysis of the deposited data

How the results depend on the processing

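The calls of DMAP1, BRD8 and MORF4L1 were kept under all 21 alternatives in each comparison where they were made. The alternatives refit the same libraries or parts of them, and the members were chosen with earlier results of these data known. Kept calls therefore lend no support of their own. Of 1250 member values under alternatives, 1229 kept their side of the threshold, 12 lost a call, 9 gained one and 0 reversed a call. The number of genes called in all moved more, from 693 with prexasertib against DMSO, 3201 with 5-Ph-IAA against DMSO, 2674 with both drugs against prexasertib, 355 with both drugs against 5-Ph-IAA, 3802 with both drugs against DMSO and 0 for the interaction. With the replicate block these counts were 2659, 6245, 5441, 2272, 6552 and 96, and among the 10 members the block changed only the call of KAT5 with 5-Ph-IAA against DMSO. Without the libraries numbered 3 the counts were 2094, 5296, 4498 and 2042 for the first 4 comparisons and 187 for the interaction. A fit to the groups compared only gave 357 genes and 1 member with prexasertib against DMSO and 184 genes with both drugs against 5-Ph-IAA. DESeq2 gave 657 genes for both drugs against 5-Ph-IAA and 5 for the interaction. Library size alone gave 6 members with 5-Ph-IAA against DMSO and 1 gene for the interaction.

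When each library was left out, the genes called numbered 306 to 786 with prexasertib against DMSO, 2092 to 3415 with 5-Ph-IAA against DMSO, 1804 to 2834 with both drugs against prexasertib, 156 to 447 with both drugs against 5-Ph-IAA and 2735 to 4051 with both drugs against DMSO. The members called with prexasertib against DMSO numbered 1 to 2, with 1 without prexasertib replicate 1. The cause of these shifts was not tested. ING3 had the fewest counts of the members, 56 to 139 per library.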
